A study of Mus musculus with 6 samples.

Results

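The fibroblast growth factor (FGF) genes described here are 10 genes, 7 ligands (Fgf1, Fgf2, Fgf5, Fgf7, Fgf10, Fgf18 and Fgf21) and 3 receptors (Fgfr1, Fgfr2 and Fgfr3). They were taken as every non-control probe whose RefSeq accession belongs to one of these genes, which gave 20 of 41174 probes. Of these, 17 probes of 9 genes were bright enough to be kept (well above background throughout wild type, throughout the knockout, or both). The 9 genes, each by its brightest kept probe, entered a comparison of 19657 features. Total RNA came from mouse embryonic fibroblasts, 3 samples labelled wild type and 3 labelled Rap1 knock-out, each on 1 one-colour Agilent array. Rap1, encoded by Terf2ip, is a telomere protein of the shelterin complex, and the series text describes mice in which its exon 3 lies between loxP sites. Cells of both groups had been infected with the SV40 large T antigen, which immortalises fibroblasts by disabling p53 and the retinoblastoma proteins, and with Cre recombinase, and were grown with 2 micrograms of puromycin per ml. The labels give neither the Rap1 alleles of the wild-type cells nor the number of embryos or cultures behind the 6 samples, so the p-values describe the spread among these 6 samples only, and that spread may be technical.

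FGF ligands are secreted proteins that bind tyrosine kinase receptors together with heparan sulphate or, for endocrine members such as Fgf21, with a klotho co-receptor. The receptors signal through the adaptor Frs2, Grb2 and the Ras-ERK cascade, which induces ETS transcription factors and, as feedback, Sprouty and dual-specificity phosphatase genes. Fibroblasts are both a source and a target of FGFs: they secrete ligands that act on epithelium, such as Fgf7 and Fgf10, and they respond to Fgf2 through Fgfr1.

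The ligands Fgf2, Fgf5, Fgf10 and Fgf21 lay lower on every knockout array than on any wild-type array. Their mean differences lay between −5.80 and −2.70 on the log2 scale. The receptors differed by 0.03 to 0.45 and overlapped between the groups. None of these differences passed the threshold of limma, a linear model with p-values adjusted over all 19657 features: 0 of the 9 genes reached an adjusted p under 0.05, against 2 features in all (0.0102%). In a fit over single probes 0 of the 17 member probes passed (limma adjusted p under 0.05), against 0.0235% of 25520. Of the 17, 6 had an unadjusted p under 0.05 (limma), a level for which the share of all single probes is not given here. At an unadjusted p under 0.05 there were 4 of the 9, all lower, where 4.66% of all features were lower and 5.61% higher. With the slide as a block there were 5 of 9, Fgf18 joining as higher, and again 0 passed (limma), where 3483 of all features had an unadjusted p under 0.05. Groups did not overlap, with the knockout lower, for these same 4 genes and for 5.88% of all features; by single probe the count was 6 of 17, against 5.63%. The same 4 genes were at least 2-fold lower and 0 at least 2-fold higher, where 6.26% and 3.90% of all features were. Fgf2 and Fgf5 entered the comparison only through the wild-type group, as did the dimmer probe of Fgf21 among single probes. A difference was thus built into their selection, and a count over the measured genes or probes supports nothing by itself. In RNA from a whole culture, fewer cells making a transcript and less of it per cell cannot be told apart.

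The libraries differed in ways that the groups do not explain. Between 61.7% and 67.1% of probes per array were well above background. Wild-type arrays 2 and 3 were nearly alike: over kept probes their log2 values differed with an SD of 0.24, where other pairs gave 0.80 to 1.21. The first array of each group shared slide 1, and the remaining 4 were on slide 2. Terf2ip was at least 38.3-fold lower in knockout cells and above background on 0 of the 3 knockout arrays; where its probe lies relative to exon 3 was not determined.

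Several markers of cell types also lay apart between the groups. All 12 fibroblast markers were above background on the wild-type arrays and 11 on all knockout arrays, Lum being the exception. None passed (limma adjusted p under 0.05). A difference below 0 was found for 8 and above 0 for 4, where 55.4% of all features lay above 0. Lower without overlap were 3, Thy1 (−2.64), Pdgfra (−2.38) and Fn1 (−0.31), and 0 were higher. Over all features 5.88% were lower and 11.3% higher without overlap. Thy1, a surface protein of fibroblasts, read 3.79, 2.88 and 2.94 in wild type and −2.22, 1.92 and 1.99 in knockout cells, and Dcn, a matrix proteoglycan, had a slide 1 difference of −11.25 against 0.24 on slide 2. The summed linear level of the list, in units of each array's 75th percentile, was 616 to 674 in wild type and 333 to 582 in knockout cells. For the 6 of 8 epithelial markers that were measured, 2 lay above 0 and 4 below, with a median difference of −0.08. Their sum was 2.40 to 3.28 in wild type and 4.09 to 13.1 in knockout cells, and it mostly followed Krt18, the brightest probe of the list. Krt18 was higher without overlap (1.53), Trp63 lower (−1.65), and Cldn4 was above background on no array. Endothelial (Kdr), muscle (Acta1) and leukocyte (Cd14) lists each had 1 gene above background on all arrays, while Pecam1, Cdh5, Tie1, Emcn, Myod1, Myog, Myf5, Ckm, Ptprc, Adgre1 and Itgam were above it on none. Of the neural and glial list, Tubb3, Map2, Nes and S100b were above background on all arrays (sums of 6.65 to 12.0 and 5.51 to 15.0), S100b lower without overlap (−1.32), and Gfap on none. The part of these shifts in the differences of the FGF genes was not tested.

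The start-site regions of the members were read from RefSeq (assembly GRCm38.p6), as windows of 250 bases before to 50 after an annotated start. Windows were given for 8 of the 10 genes, 9 windows in all, with none for Fgf1 and Fgfr1. The letters TTAGGG, the unit of the telomere repeat that the shelterin proteins Terf1 and Terf2 bind, were searched first because Rap1 belongs to that complex. Read on both strands, they occurred in 2 of 9 windows, those of Fgf10 and Fgfr3, and in 10.6% of 32851 windows of the same length. The stretch shown around the match of Fgf10 lies at chr13:118714542-118714571 (plus strand) and that of Fgfr3 at chr5:33721474-33721503 (plus strand). In Fgfr3 the match is the reverse complement CCCTAA, and capitals mark each match.
Fgf10: gttcccagcagcTTAGGGtttcagatgtcc
Fgfr3: aagacgCCCTAAcacctagacccccaccga
Fgf10 differed by −2.70 and Fgfr3 by 0.21, and neither passed (limma adjusted p = 0.201 and 0.711). The other window of Fgfr3 does not hold the letters. A link between the letters and the differences was not tested. Each of the 2 matching windows holds a single copy, which is a match of letters and not a measured binding site.

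For the other ligands that lay lower, the regions shown hold common promoter letters. Fgf21 has the TATA box letters TATAAA from position −28 relative to its start (stretch shown at chr7:45615501-45615530, minus strand), letters found in 2 of 9 member windows and 13.6% of all. The windows of Fgf2 (stretch shown at chr3:37348592-37348621, plus strand) and Fgf5 (stretch shown at chr5:98254098-98254127, plus strand) each hold a GC box, GGGCGG or its reverse complement CCGCCC, as did 7 of 9 member windows and 35.7% of all. Those 7 windows were rich in G and C, from 58% (Fgf21) to 78.7% (Fgf18), where the median over all windows was 52.7%. The windows without the box, of Fgf7 and Fgfr2, had 45.7% and 43.7%. Capitals mark the matches shown.
Fgf21: ggcctgtctgggTATAAAttctggtatttc
Fgf2: aggcggcgcgcgGGGCGGgggcgcacgggg
Fgf5: tccttcacacccCCGCCCccgggaccgcgg
The AP-1 letters TGANTCA occurred in 0 of 9 windows (7.81% of all), the ETS letters CCGGAAGT in 0 (3.89%) and CCAAT in 2 (37.4%).

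Levels are given on a log2 scale on which 0 is each array's own 75th percentile of processed signal, always for arrays 1, 2 and 3 in order. The level of 1 probe cannot be set against that of another.

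Fgf10, a mesenchymal signal for the outgrowth of limb and lung buds, gave the smallest p of the members. Its probe, printed 10 times per array, read −2.34, −2.48 and −2.61 in wild type and −6.11, −5.14 and −4.28 in knockout cells. All 6 arrays measured it above background, the groups did not overlap, and the knockout arrays were spread over a wider range than the wild-type arrays. The means were −2.48 ± 0.13 (SD, n = 3) and −5.18 ± 0.92 (SD, n = 3), a difference of −2.70 (SE 0.46, limma adjusted p = 0.201), or 6.51-fold lower. The difference was −3.77 on slide 1 and −2.17 on slide 2.

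Fgf2, basic FGF and a mitogen of fibroblasts, was read by a probe printed 10 times and by a single spot. The first read −4.49, −4.24 and −4.15 in wild type and −8.67, −6.19 and −8.20 in knockout cells. The second read −4.07, −4.09 and −3.90 against −9.06, −6.38 and −9.55. Both probes put knockout array 2 highest in its group, and it was the only knockout array on which either was well above background. The first probe differed by −3.39 (SE 0.62, limma adjusted p = 0.239), and was lower on both slides, by −4.17 on slide 1. In the fit over single probes the second differed by −4.31 (SE 0.78, limma adjusted p = 0.240). With each dim value raised to the lowest signal well above background on its array, the differences were −2.48 and −2.82, and the groups still did not overlap. Without knockout array 2 both probes passed in the fit over single probes (limma adjusted p = 0.0386 and 0.0200). In the fit over genes Fgf2 did not (limma adjusted p = 0.0507). Both remaining knockout arrays were then below background, so the sizes are bounds, at least 6.84-fold and 8.29-fold lower. For the same reason these p-values rest on the spread of knockout readings below background, which does not measure the spread of the transcript.

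Fgf21, a hormone of fasting and stress metabolism, was read by a pair of probes. The brighter read −1.44, −0.87 and −1.26 in wild type and −6.38, −3.61 and −3.25 in knockout cells. The other read −2.66, −2.14 and −2.60 against −7.35, −5.08 and −4.33. Both probes were lowest on knockout array 1, the only array on which the dimmer was not well above background. The brighter probe differed by −3.22 (SE 0.80, limma adjusted p = 0.373), or 9.32-fold lower, and the dimmer by −3.13 (SE 0.73, limma adjusted p = 0.373 over single probes). The brighter probe differed by −4.94 on slide 1 and −2.36 on slide 2.

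Fgf5, which ends the growth phase of the hair follicle, had the largest mean difference among the members. Its 1 probe read −2.62, −0.76 and −0.50 in wild type and −2.87, −8.99 and −9.43 in knockout cells. Knockout arrays 2 and 3 did not measure it above background, whereas knockout array 1 read close to wild-type array 1, its neighbour on slide 1. The groups were therefore separated by only that pair. The difference of −5.80 (SE 1.73, limma adjusted p = 0.465) had a 95% interval of −9.92 to −1.68. It was −0.25 on slide 1, whereas on slide 2, where neither knockout array was above background, Fgf5 was at least 86.5-fold lower. With dim values raised to the lowest signal well above background, it was −4.37, or 20.7-fold lower.

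**Figure D1:**
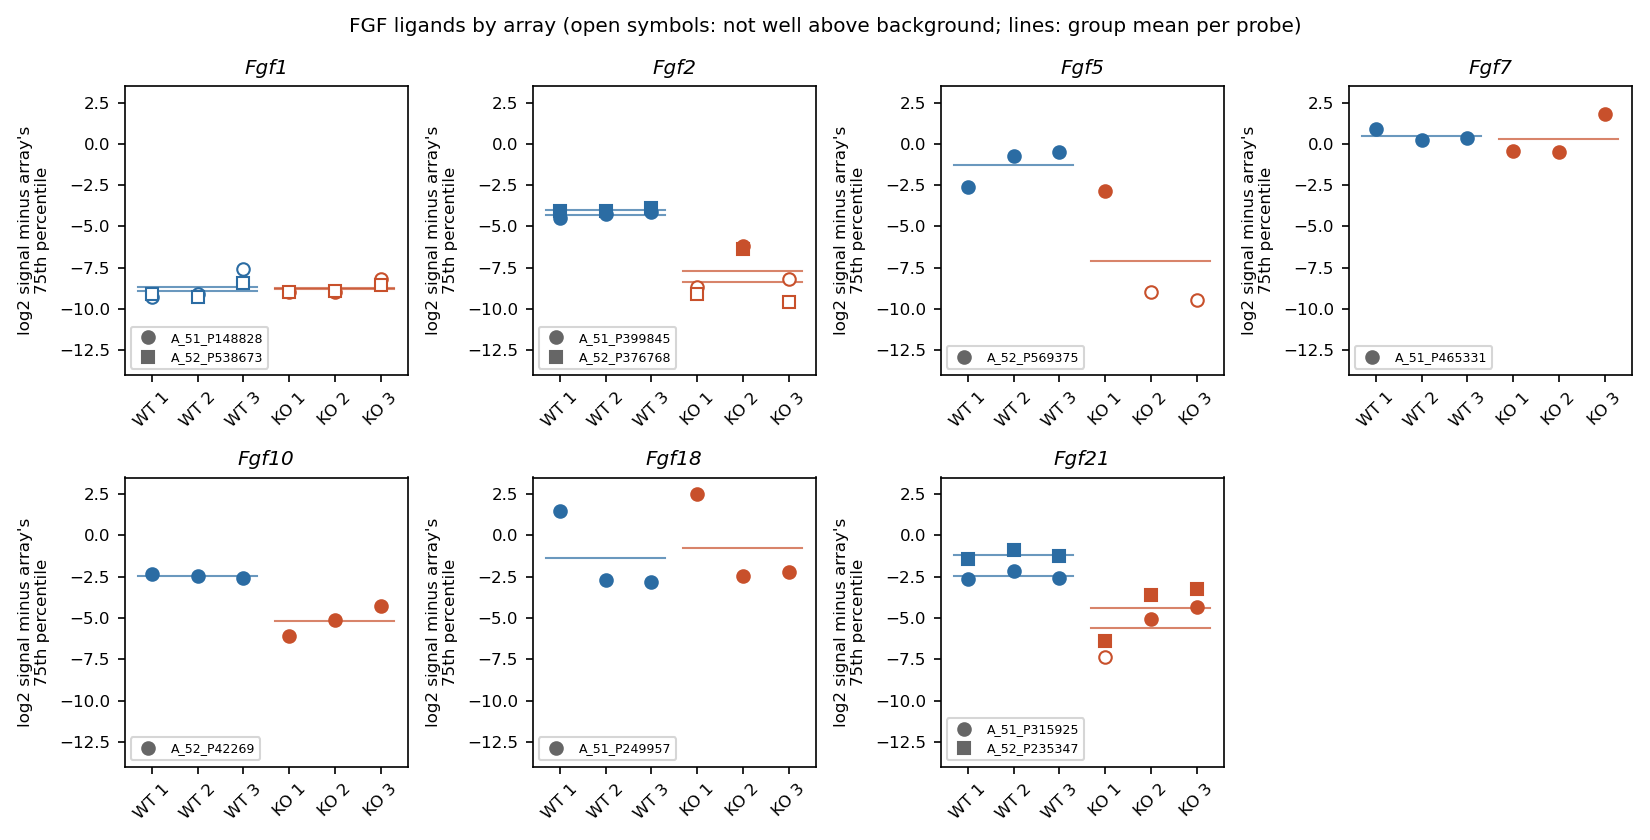
Level of each FGF ligand on the 3 wild-type (WT, blue) and 3 knockout (KO, orange) arrays, as log2 signal minus the 75th percentile of the array; each symbol shape is a probe, open symbols are not well above background and lines are group means. Fgf2, Fgf5, Fgf10 and Fgf21 lie lower on all knockout arrays, with knockout array 1 of Fgf5 at −2.87 beside wild-type array 1 at −2.62.

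The other 3 ligands did not separate the groups over all arrays. Fgf7, the keratinocyte growth factor, read 0.89, 0.24 and 0.36 in wild type and −0.46, −0.49 and 1.81 in knockout cells. Its knockout arrays lay on both sides of all wild-type arrays, and the difference was −0.21 (SE 0.64, limma adjusted p = 0.894; 95% interval −1.74 to 1.31). Fgf18, a ligand of skeletal growth, read 1.45, −2.71 and −2.85 in wild type and 2.48, −2.46 and −2.24 in knockout cells. The array on slide 1 was the high one in each group, and the difference between groups was 0.63 (SE 1.67, limma adjusted p = 0.878; 95% interval −3.35 to 4.60). Within each slide Fgf18 lay higher in knockout cells, and with the slide as a block the SE was 0.22 (limma adjusted p = 0.247, unadjusted 0.0321). Fgf1, acidic FGF, was not well above background on any array with either of its probes (−9.29 to −7.60), so it was not tested.

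Among the receptors, Fgfr1, the main FGF receptor of mesenchyme, was the steadiest. Its brightest probe read 0.55, 0.31 and 0.48 in wild type and 0.30, 0.55 and 0.58 in knockout cells. The difference was 0.03 (SE 0.22, limma adjusted p = 0.956), with a 95% interval of −0.48 to 0.55, so a change beyond 2-fold lies outside it. The other 3 probes of Fgfr1 differed by 0.08, 0.23 and 0.01, and all 4 were above background on all arrays.

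Fgfr2, whose splice forms divide the ligands between epithelium and mesenchyme, read −0.02, −1.15 and −1.25 in wild type and 0.69, −0.89 and −0.87 in knockout cells with its brightest probe. As for Fgf18, the array on slide 1 was the high one in each group. The difference was 0.45 (SE 0.54, limma adjusted p = 0.717; 95% interval −0.85 to 1.75). Another probe gave 0.27, and the dimmest, kept through the knockout group only, 1.23 (SE 0.72, limma adjusted p = 0.533 over single probes).

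Fgfr3, a brake on the growth of cartilage, read −0.73, −0.95 and −0.95 in wild type and −0.57, −1.02 and −0.40 in knockout cells. It differed by 0.21 (SE 0.25, limma adjusted p = 0.711; 95% interval −0.38 to 0.81), and a second probe by 0.10. The remaining probe of the same accession was well above background only on knockout array 3, so the probes of Fgfr3 disagree on whether the gene is detected. The files do not give the probes' sequences, so which splice forms each reads was not determined.

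**Figure D2:**
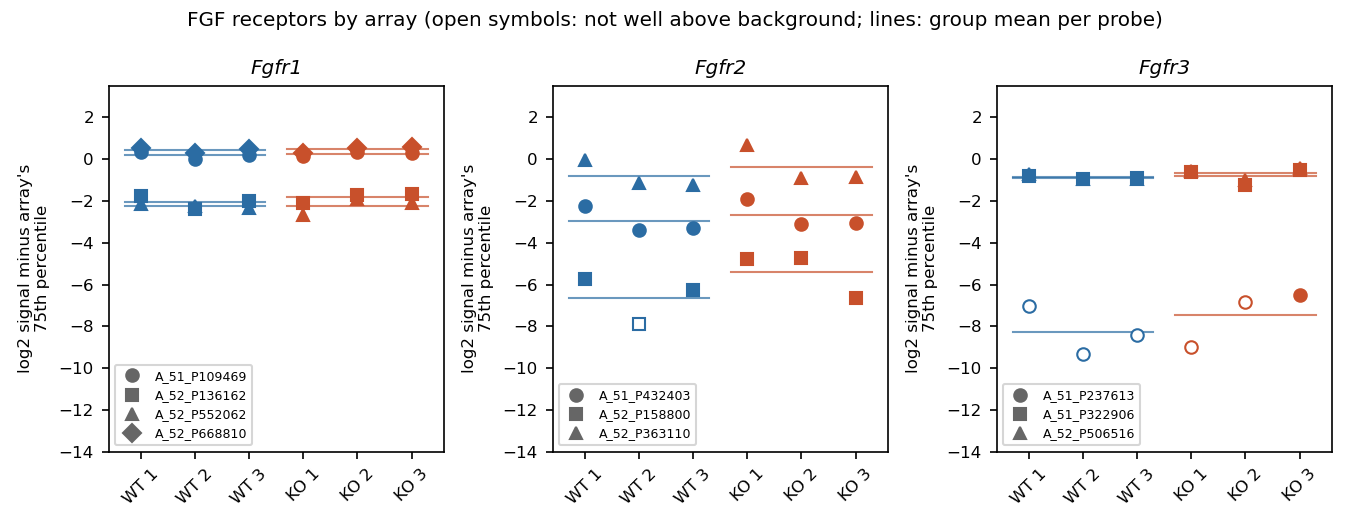
Level of each FGF receptor on the same arrays and scale, with the symbols and lines as for the ligands. The groups overlap for all probes shown, and the arrays of slide 1 (WT 1 and KO 1) are highest for the brightest probe of Fgfr2, at −0.02 and 0.69.

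Spots of the same probe on 1 array show the error of reading a spot, though not that of labelling or of hybridising separate arrays. For Fgf10 the SD over spots was 0.053 to 0.36, and all 29 wild-type spots (−2.71 to −2.17) lay above all 30 knockout spots (−6.76 to −4.14). For Fgf2 the 30 wild-type spots (−4.60 to −3.96) lay above the 27 knockout spots (−9.49 to −5.94), with the largest spot SD, 0.80, on knockout array 3. Spots are not replicates of a condition. The spots of the 3 knockout arrays did not overlap each other for Fgf10. For Fgfr1 the spots of all arrays lay between −0.08 and 0.43.

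**Figure D3:**
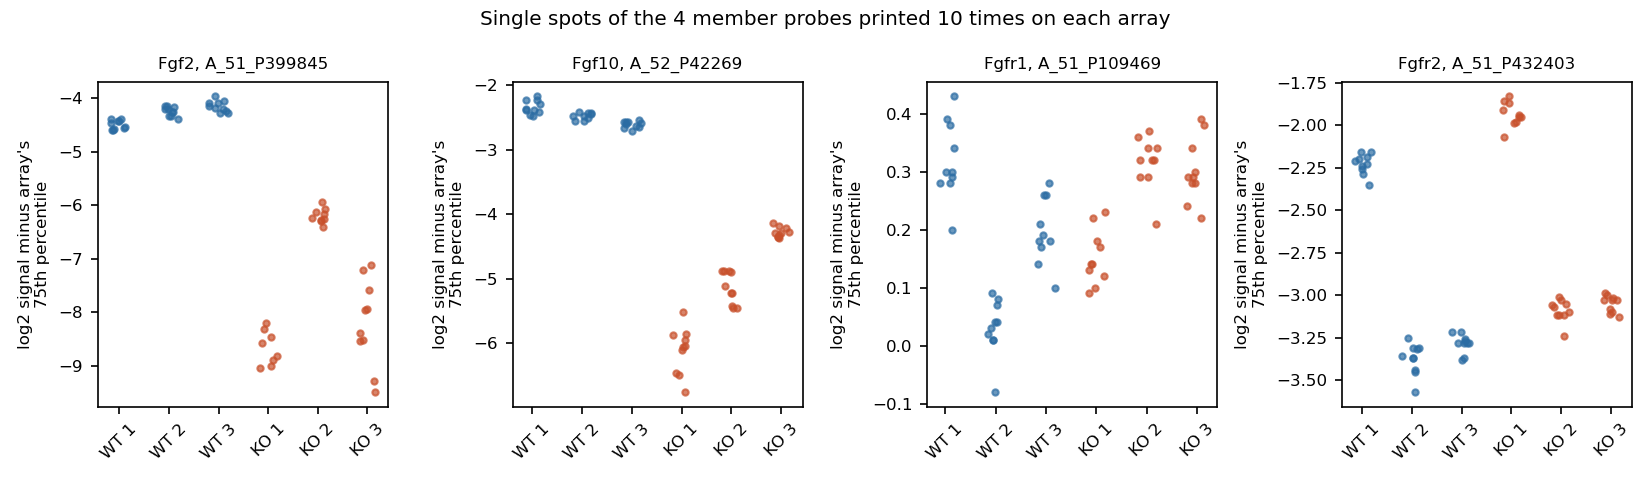
Every spot of the 4 member probes printed 10 times per array, less spots marked as outliers, as log2 signal minus the 75th percentile of the array (each panel has its own vertical scale). Wild-type and knockout spots do not meet for Fgf2 and Fgf10, overlap for Fgfr1, and for Fgfr2 stand highest on the arrays of slide 1, WT 1 and KO 1.

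Fgf18 and Fgfr2 followed the slide more than the group. Fgf18 was 4.53 higher on slide 1 than on slide 2 (log2, 23.1-fold), a size that 0.0917% of all features exceeded, and Fgfr2 was 1.38 higher (5.21% exceeded it). The arrays of slide 1 lay above all others for these 2 genes, as they did for 8.16% of all features. With only 1 sample per group on slide 1, an effect of the slide and one of these samples cannot be told apart.

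**Figure D4:**
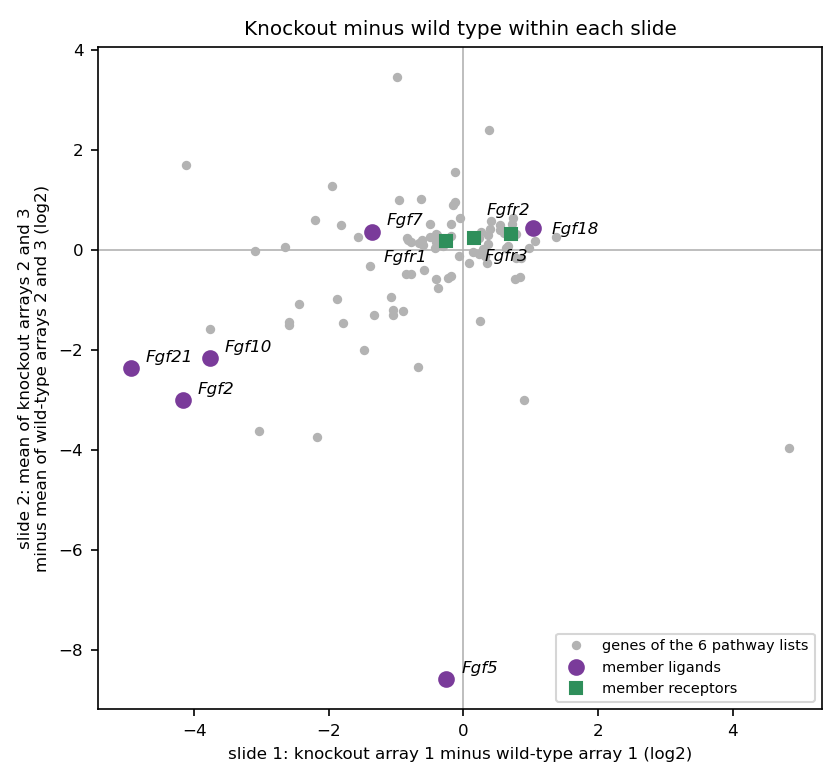
Knockout minus wild type on slide 1 (horizontal, 1 array per group) against slide 2 (vertical, means of 2 arrays per group), in log2 units, for the member ligands (purple), the member receptors (green) and genes of the 6 pathway lists (grey). Fgf2, Fgf10 and Fgf21 are below 0 on both slides, and Fgf5 is at −0.25 on slide 1 and −8.58 on slide 2, the latter from knockout values below background.

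The likeness of other genes was taken as Pearson's r over the 6 arrays, among 11868 features with a gene symbol. It is given as a description, since the arrays share the groups and wild-type arrays 2 and 3 are nearly alike. Closest to Fgf10 were Slc20a2, a phosphate transporter (r = 0.9937), Gm5662 (0.9922) and Lrrc27 (0.9911), whose differences were −0.32, −0.94 and −1.88. Closest to Fgfr3 were Tspyl4 (0.9936), Elmo3 (0.9910) and Hsf5 (0.9901), with differences of 0.61, 0.56 and 0.77.

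The rest of the pathway was described from 6 lists, none of which had a member past the threshold in either direction (limma adjusted p under 0.05). Over all features the median difference was 0.07, and 55.4% lay above 0.

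Among negative regulators of the signal, 13 of 14 listed genes were measured, 11 with a difference below 0 and 2 above, and a median of −0.60. Knockout arrays lay wholly below wild type for 3 (Spry4, Spry1 and, named after its values were seen, Spred1) and above for 0, and 3 were lower and 0 higher at an unadjusted p under 0.05; over all features 5.88% lay wholly below and 4.66% were lower by that p. The median was −0.31 without knockout array 1 and −0.92 without knockout array 2. Spry4, a Sprouty inhibitor of receptor signalling, read −3.32, −1.50 and −1.52 in wild type and −6.35, −4.34 and −5.92 in knockout cells. It differed by −3.43 (SE 0.69, limma adjusted p = 0.288), with −3.03 on slide 1 and −3.62 on slide 2. Spry1, of the same family, read 2.25, 1.14 and 0.89 against −1.52, −1.30 and 0.13, a difference of −2.32 (SE 0.55, limma adjusted p = 0.356). Both were separated by group, and both were above background on all arrays. Another probe of Spry4, too dim to be kept, differed by −1.65. Rasa1, a GTPase-activating protein of Ras, differed by −1.22 (SE 0.49) and overlapped. The list as a whole did not separate the arrays. With each gene centred on its own mean, the list's median was −0.05, 0.50 and 0.43 in wild type and −1.18, 0.19 and −0.16 in knockout cells.

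Of the transcription factors and targets that ERK induces, 14 of 16 were measured, 11 below 0 and 3 above, with a median of −0.50. The median was −0.18 without knockout array 1 and −0.75 without knockout array 2. This list did not separate the arrays either. With each gene centred on its own mean, its median was 0.06, 0.43 and 0.37 in wild type and −0.79, 0.67 and −0.50 in knockout cells. Knockout array 2 thus lay above all wild-type arrays, and no gene of the list was without overlap between the groups. At an unadjusted p under 0.05, 1 was lower and 0 higher, near the 4.66% of all features that were lower. That gene was Etv5, an ETS factor, which read −3.20, −1.67 and −1.72 in wild type and −4.67, −3.19 and −4.20 in knockout cells. Knockout array 2 reached wild-type array 1, and the difference was −1.82 (SE 0.55, limma adjusted p = 0.468). Etv4, a related factor, differed by −1.83 (SE 0.97) and Phlda1 by −0.68 (SE 0.39), each with knockout array 1 lowest.

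The adaptors and the ERK cascade lay slightly above 0, with 17 of 24 measured genes above, 7 below and a median of 0.19. No difference reached 2-fold, and at an unadjusted p under 0.05, 2 were higher and 0 lower, where 5.61% of all features were higher. The median was 0.10 without knockout array 2, 0.12 without wild-type array 2 or knockout array 1, and 0.38 without knockout array 3. Grb2, the adaptor that brings Sos to the receptor complex, read 2.71, 2.74 and 2.73 in wild type and 3.44, 3.31 and 3.20 in knockout cells, a difference of 0.59 (SE 0.20, limma adjusted p = 0.474). Araf, a kinase at the head of the cascade, differed by 0.67 (SE 0.27). The knockout arrays lay wholly above wild type for 4 of the 24 genes, where this held for 11.3% of all features.

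Of 22 measured genes of FGF binding and heparan sulphate, 10 lay above 0 and 12 below, with a median of −0.04 that turned to 0.06 when arrays were scaled by their median and, on leaving out single arrays, to 0.15 without the first wild-type array and to between 0.03 and 0.06 without any one of the knockout arrays. Hs3st1, a 3-O-sulphotransferase of heparan sulphate, had the smallest p of all pathway genes. It read −0.84, 0.34 and 0.42 in wild type and −3.01, −2.91 and −3.81 in knockout cells, a difference of −3.22 (SE 0.43, limma adjusted p = 0.128), and was lower on both slides (−2.17 and −3.74). Hs6st2, which adds 6-O-sulphate that FGFs use for binding, differed by −1.57 (SE 0.61) and Gpc6, a glypican, by −0.99 (SE 0.42); both overlapped between groups.

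Only 4 of 15 other FGF ligands and 9 of 11 other receptors and co-receptors were measured, with medians of −0.37 and 0.08. The first was −0.03 without wild-type array 1 and 0.04 on slide 2 alone, and the second turned to −0.08 without knockout array 2 and −0.21 without knockout array 3. Kl and Klb, the klotho co-receptors of endocrine FGFs, were not well above background on all arrays of either group. Fgf8 differed by −0.84 (SE 0.71). Fgf23, kept through wild type only, was above background on 1 of 3 knockout arrays and, with dim values raised to the lowest signal well above background, 2.01-fold lower (−1.11 as measured, SE 0.35). Fgf22, kept through the knockout group only, was above background on 1 of 3 wild-type arrays and 2.11-fold higher in the same way (1.98 as measured, SE 0.87). Flrt2, a membrane protein that binds FGF receptors, differed by −1.28 (SE 0.43), Lctl, a klotho relative, by 1.72 (SE 0.70), and Fgfr4 by 0.99 (SE 0.41). Of these 6 genes, Fgf23 and Flrt2 were lower on all knockout arrays than on any wild-type array, 1 of 4 and 1 of 9 measured genes of their lists. Over all features 5.88% were. The 6 were named for their small p-values, which favours such a separation. Another probe of Fgf23, too dim to be kept, differed by −0.1.

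**Figure D5:**
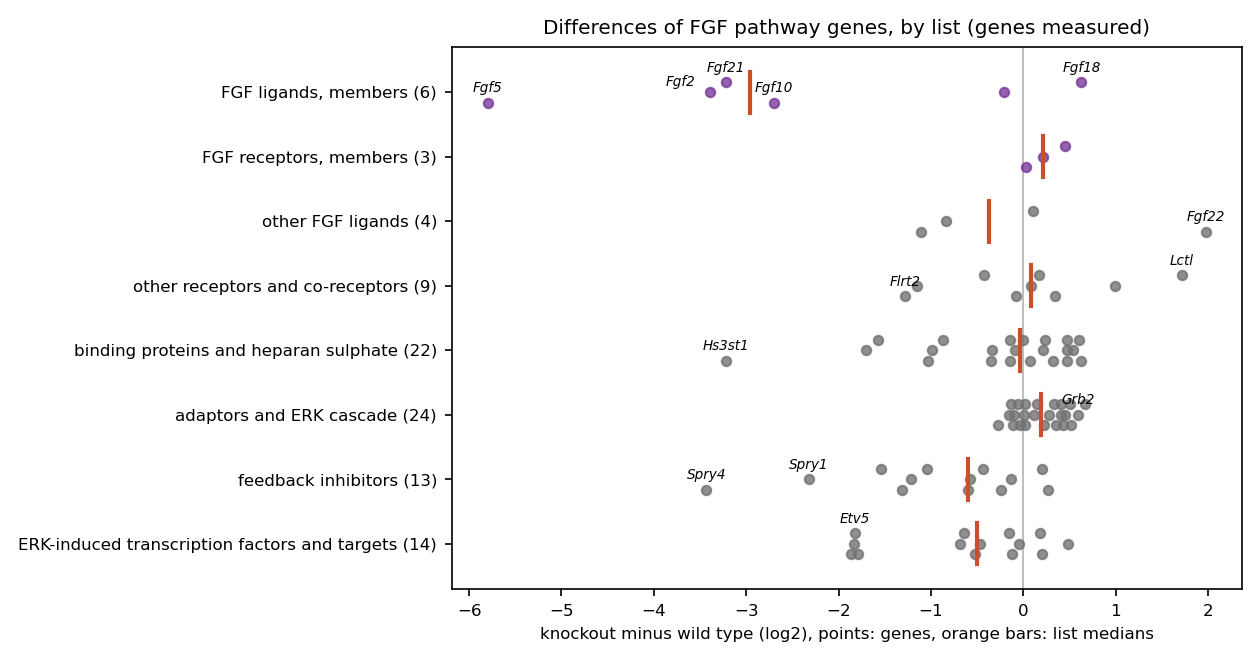
Knockout minus wild type (log2) for each measured gene of the member groups (purple) and the 6 pathway lists (grey), with list medians as orange bars and the number of genes measured in parentheses. The ligands spread from −5.80 to 0.63, the receptors lie between 0.03 and 0.45, and Spry4, Spry1 and Hs3st1 are the lowest pathway genes.

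The size of the ligand differences depended on the treatment of dim signals. Quantile normalisation alone left them nearly as they were. After normexp background correction with an offset of 50 before it, the differences were −0.94 for Fgf2, −2.37 for Fgf5, −1.37 for Fgf10 and −2.17 for Fgf21. In the deposited value table they were −0.95, −2.39, −1.35 and −2.17. Fgf2 is there read by its other probe, and the one that gave −3.39 read −0.77 and −0.81. With wild-type arrays 2 and 3 averaged and counted as 1, the differences were −3.34, −5.47, −2.74 and −3.16, with limma adjusted p-values of 0.805, 0.936, 0.681 and 0.936. On slide 2 alone Fgf5 (at least 86.5-fold lower, limma adjusted p = 0.0170, both knockout arrays below background) and Fgf21 (−2.36, 0.0473) passed. There the near-alike arrays 2 and 3 were the only wild type, and 302 features in all were called. The dimmer probe of Fgf21 did not pass there in the fit over single probes (−2.34, limma adjusted p = 0.0719).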

How the data were processed

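Each of 6 RNA samples (3 wild type, 3 Rap1 knockout) was measured on its own array. The scanner output is intensity, which the authors extracted using Feature Extraction 10.5.1.1 (version per the file headers); its processed signal was used. The deposited value table holds log2 values, for which no label states the steps, although the submitters' processing notes list limma. They matched normexp-corrected, quantile-normalised scanner signals (r of at least 0.9999827 per column), and column medians were 6.86 to 6.87. Its knockout columns 1, 2 and 3 held scanner files 2, 3 and 1, so replicate numbers and slides here are those of the scanner files.

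Control spots (1639 of 45018) and outlier spots (74 to 120 per array) were left out, and no spot reached saturation. Replicate spots were averaged as log2 processed signal minus the array's 75th percentile. A probe was well above background where at least 0.5 of its spots were, and was kept (25520 of 41174) if so on all arrays of a group. RefSeq accessions named 23374 probes and 17800 kept the file's name. A gene was represented by its brightest kept probe; every member probe was also tested singly. The groups were compared with limma 3.58.1 (R 4.3.3, 2-sided, Benjamini-Hochberg 0.05, no block). The fit was also run on simulated arrays with independent noise. Those lack the slides and the near-alike wild-type arrays, so that run cannot show how the fit behaves with them. A group in which no array measured a probe has a bound, the lowest signal well above background on each array or the probe's own if higher. The number of arrays limits the precision. Named were all members, Terf2ip, the 3 pathway genes of smallest p in each list, and the 3 features most like the ligand and the receptor of smallest p; an item this rule names is not reported here. The members and lists were chosen with earlier results of these data known. Alternatives were other background correction, scaling, filters, gene summaries and variance models, the value table, the replicate number or slide as a block, slide 2 alone, wild-type arrays 2 and 3 averaged, and each array left out.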

Additional observations from a re-analysis of the deposited data

How the results depend on the processing

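Fgf2, Fgf5, Fgf10, Fgf21 and Fgfr3 (brightest probe) kept their direction under all alternatives that could be run; a filter on probes above background on all arrays removes Fgf2 and Fgf5. The number of member genes called was 0 except on slide 2 alone, where it was 2, as was the number of member probes. Leaving out single arrays gave 0 to 2 member probes called and 0 to 64 features. Features called were 2 with all arrays, 0 with probes above background on all arrays (1781 at an unadjusted limma p under 0.05), 4 with the mean of a gene's probes, 0 with the slide block (3483 unadjusted), 302 on slide 2 alone and 0 with wild-type arrays 2 and 3 averaged (692 unadjusted). The 64 were called without wild-type array 1. With the replicate block 0 features (2354 unadjusted) and 0 members passed; deviations of same-numbered arrays correlated at 0.01, 0.05 and −0.08, no sign of pairing.

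Small differences turned sign. Fgf7 was 0.36 on slide 2 alone and ranged from −0.98 to 0.17 without single arrays, Fgf18 was −0.08 with wild-type arrays 2 and 3 averaged and ranged from −0.98 to 2.04, and Fgfr2 ranged from −0.08 to 0.84. Fgfr1 ranged from −0.04 to 0.12. Among single probes, A_51_P109469 (Fgfr1) ranged from 0.00 to 0.14, A_52_P552062 (Fgfr1) from −0.16 to 0.24, with −0.02 when wild-type arrays 2 and 3 were averaged, A_52_P668810 (Fgfr1) from −0.04 to 0.12, A_51_P432403 (Fgfr2) from −0.11 to 0.64 and A_51_P322906 (Fgfr3) from −0.04 to 0.31. The cause was not tested. Median scaling moved the median of all features from 0.07 to 0.17, and dropping the filter to −0.08. Signal over background limits Fgf2 and Fgf5 in knockout cells.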

Other observations

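A few genes around FGF signalling differed in opposite directions on the slides; they were chosen after their values were seen, and the difference between slides was not tested. Fgfbp1, a carrier that releases FGFs from the matrix, read −7.30, −2.38 and −2.22 in wild type against −2.47, −5.65 and −6.87 in knockout cells. The difference was 4.84 on slide 1 and −3.96 on slide 2. Wild-type array 1 did not measure Fgfbp1 above background, so the size of its slide 1 difference rests on a reading below background. Dusp4, a phosphatase of ERK, read −0.97, −3.81 and −3.87 against −5.09, −1.98 and −2.30, with −4.12 on slide 1 and 1.70 on slide 2. Fgf22, kept through the knockout group only, differed by −0.98 on slide 1. On slide 2, where neither wild-type array was well above background, it was at least 4.30-fold higher in knockout cells. For each of them the mean over all arrays hides a wide spread inside the groups.

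Sulf1, an enzyme that removes 6-O-sulphate from heparan sulphate, read 3.18, 4.56 and 4.65 in wild type and 4.08, 1.23 and 1.99 in knockout cells, so knockout array 1 lay among the wild-type arrays. Dusp6, the ERK phosphatase induced by FGF signals, read 4.62, 5.21 and 5.28 against 2.18, 5.17 and 3.13. Here knockout array 2 was the one that lay among the wild-type arrays.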
